A study of Mus musculus with 11 samples.

Results

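The 8 genes described here encode the enzymes that place, copy and remove DNA methylation in the mouse, 8 of the 48795 genes quantified, and were chosen by name for this function. The maintenance pair is Dnmt1, the methyltransferase that copies methylation onto new DNA strands, and Uhrf1, which recruits it to hemimethylated sites. Dnmt3a and Dnmt3b are the de novo methyltransferases. Tet1, Tet2 and Tet3 oxidize 5-methylcytosine, and Tdg, thymine DNA glycosylase, excises the oxidized bases.

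RNA was measured in 11 libraries of splenic B cells sorted on day 10 after intravenous immunization of female mice with SRBC (sheep red blood cells). All mice were 8 to 12 weeks old and on the C57BL/6 background. Light zone (LZ) B cells, sorted as B220+ CD138neg IgDneg CD38neg Fas+ CD86high CXCR4low, came from 4 Myc WT and 4 Myc V394D mice. Memory B cells (MBCs), sorted as B220+ CD138neg IgDneg CD38+ CD273+, came from 3 of the same Myc WT mice, numbered 1, 3 and 4. The V394D replacement, made at the endogenous Myc locus and so present in every cell, prevents binding of MYC to MIZ1 and leaves the binding to MAX intact. The mouse IDs of Myc WT mice 1 to 3 share 1 prefix, Myc WT mouse 4 has another and all Myc V394D mice have a further one. The labels do not say what a prefix stands for, and it cannot be told apart from genotype.

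Germinal center B cells divide rapidly in the dark zone and are selected with T cell help in the LZ, whereas MBCs are largely quiescent. Maintenance of methylation accompanies DNA replication, so Dnmt1 and Uhrf1 are known as genes of dividing cells. Dnmt3a and Tet2 are known for their loss in blood cancers, lymphomas included.

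Values are TPM, in which the estimated reads of a gene are set against its length and every library has the same total. They keep no depth, so precision rests on the spread between mice. Between 11527 and 19537 genes were above 0 in a library. Ribosomal RNA took 35.7 to 44.5% of TPM in Myc WT LZ, 44.1 to 61.3% in Myc V394D LZ and 36.1 to 37.5% in MBCs. The summed TPM of 8 germinal center markers was 1484 to 1845 in Myc WT LZ, 1298 to 1764 in Myc V394D LZ and 510 to 607 in MBCs, and that of 7 memory markers was 41.4 to 55.4, 17.7 to 42.2 and 579 to 718. Of the memory markers, 6 were higher in MBCs than in Myc WT LZ and Nt5e was lower (11.5 to 9.23 TPM). Fas and Cd86 in the first list, and Cd38 and Pdcd1lg2 (CD273) in the second, were also sorting markers, so these sums are not independent of the sort. Naive follicular markers (4 genes) summed to 215 to 234 TPM in Myc WT LZ and 730 to 857 TPM in MBCs. Myeloid markers (7 genes) summed to 7.69 to 18.7 TPM in Myc WT LZ and 36.4 to 184 TPM in MBCs, where S100a8 and S100a9 were at 0. Lyz2 was at 0.15, 31.16 and 135.59 TPM in MBCs. Csf1r rose from no more than 0.08 TPM in Myc WT LZ to 9.99, 5.89 and 16.35 TPM in MBCs (adjusted p = 0.00652 from limma), and Itgam from no more than 0.12 TPM to 3.84, 5.12 and 9.18 TPM (adjusted p = 0.0137). Erythroid markers (6 genes) summed to 116 to 226 TPM in Myc WT LZ, 71.9 to 410 TPM in Myc V394D LZ and 7.60 to 6713 TPM in MBCs, the highest in mouse 3, whose Hbb-bs level was 2609 TPM. T cell markers (7 genes) summed to 33.1 to 68.4 TPM in Myc WT LZ and 0 to 36.1 TPM in MBCs, mostly from Lck, at 32.98 to 66.53 TPM in LZ and 26.13, 0 and 18.75 TPM in MBCs. The other T cell markers were at no more than 1.99 TPM in Myc WT LZ, at 0 in MBC 1 and 3, and at 1 to 5.37 TPM in MBC 4. The part of these markers in the results below was not tested beyond leaving out each library.

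RefSeq holds 13 promoters for the 8 genes in GRCm38.p6, each a window of 300 bases from 250 before to 50 after a start site. An E2F site, the element through which replication genes are activated at S phase entry, was searched as TTTCCCGC, TTTGGCGC, TTTCGCGC and TTTGCCGC, and an E-box, the element bound by MYC with MAX, as CACGTG, both on either strand. E2F letters were found in 2.26% of 32851 RefSeq promoters and in 2 of these 13, which belong to Dnmt1 and Uhrf1. The E-box was found in 7.15% of all promoters. Among the 13 it was in the Tdg promoter and in the Dnmt3a promoter at chr12:3891494-3891793, and the other Dnmt3a promoters held none. A match is a description of letters and not evidence of binding.

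The bases before the start site are given for Uhrf1, lower in MBCs, for Tdg, whose MBC values lay below LZ without passing the adjusted threshold, and for Dnmt3b and Tet2, higher in MBCs, up to the first base of any annotated exon and with E2F and E-box letters in capitals.
Uhrf1 (chr17:56304063-56304312, plus strand): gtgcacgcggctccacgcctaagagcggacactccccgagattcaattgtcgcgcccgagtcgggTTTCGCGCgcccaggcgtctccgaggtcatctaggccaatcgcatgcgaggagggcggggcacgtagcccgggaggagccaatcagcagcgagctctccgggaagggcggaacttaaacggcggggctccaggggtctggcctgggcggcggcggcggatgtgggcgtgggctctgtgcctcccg
Tdg (chr10:82629588-82629827, plus strand): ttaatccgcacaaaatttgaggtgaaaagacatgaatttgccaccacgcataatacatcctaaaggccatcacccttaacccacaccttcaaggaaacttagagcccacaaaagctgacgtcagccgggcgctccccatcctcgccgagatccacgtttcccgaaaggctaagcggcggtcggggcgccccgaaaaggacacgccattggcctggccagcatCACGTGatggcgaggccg
Dnmt3b (chr2:153649199-153649448, plus strand): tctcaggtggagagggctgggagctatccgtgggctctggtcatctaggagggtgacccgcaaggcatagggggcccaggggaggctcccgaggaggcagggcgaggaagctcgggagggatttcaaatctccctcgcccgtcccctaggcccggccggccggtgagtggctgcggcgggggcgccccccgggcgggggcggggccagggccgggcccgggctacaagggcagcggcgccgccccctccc
Tet2 (chr3:133544391-133544640, minus strand): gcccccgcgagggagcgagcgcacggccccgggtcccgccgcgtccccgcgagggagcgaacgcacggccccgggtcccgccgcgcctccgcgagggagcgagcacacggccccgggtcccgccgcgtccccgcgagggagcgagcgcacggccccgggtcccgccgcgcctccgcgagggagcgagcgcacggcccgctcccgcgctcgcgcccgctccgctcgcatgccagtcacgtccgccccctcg
Uhrf1 carried TTTCGCGC beginning 185 bases before this start site, and its other promoter carried none. In Dnmt1 the matches lay in the promoter at chr9:20952574-20952873, the first of them 219 bases before the start site. Neither Dnmt3b nor Tet2 held an E2F or E-box match in these windows. The Tet2 window held 57 CpG dinucleotides, more than 99.85% of all promoters, whose median was 7, while the full windows of Uhrf1 and Dnmt3b held 33 and 30. The stretches printed held 30 CpG in Uhrf1, 18 in Tdg, 21 in Dnmt3b and 51 in Tet2.

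In LZ B cells of Myc WT mice the maintenance pair stood highest. Mean TPM fell from Dnmt1 (119) through Uhrf1 (66.6), Tet3 (36.8), Tdg (26.7), Dnmt3a (14.8), Tet2 (10.9) and Dnmt3b (1.18) to Tet1 (0.453). The ranges over mice of neighbours in this order overlapped, except between Uhrf1 and Tet3 and between Tet2 and Dnmt3b. In MBCs the 4 highest genes were Tet3 (54.3), Dnmt3a (49.2), Tet2 (49.0) and Dnmt1 (48.7), whose ranges overlapped, followed without overlap by Dnmt3b (15.7), Tdg (14.0), Uhrf1 (10.98) and Tet1 (3.92), whose neighbours overlapped in turn. Among 13241 genes, the level of Uhrf1 stood at percentile 89 in Myc WT LZ and 48.3 in MBCs, and that of Dnmt3a at percentile 57.9 and 82.2.

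**Figure D1:**
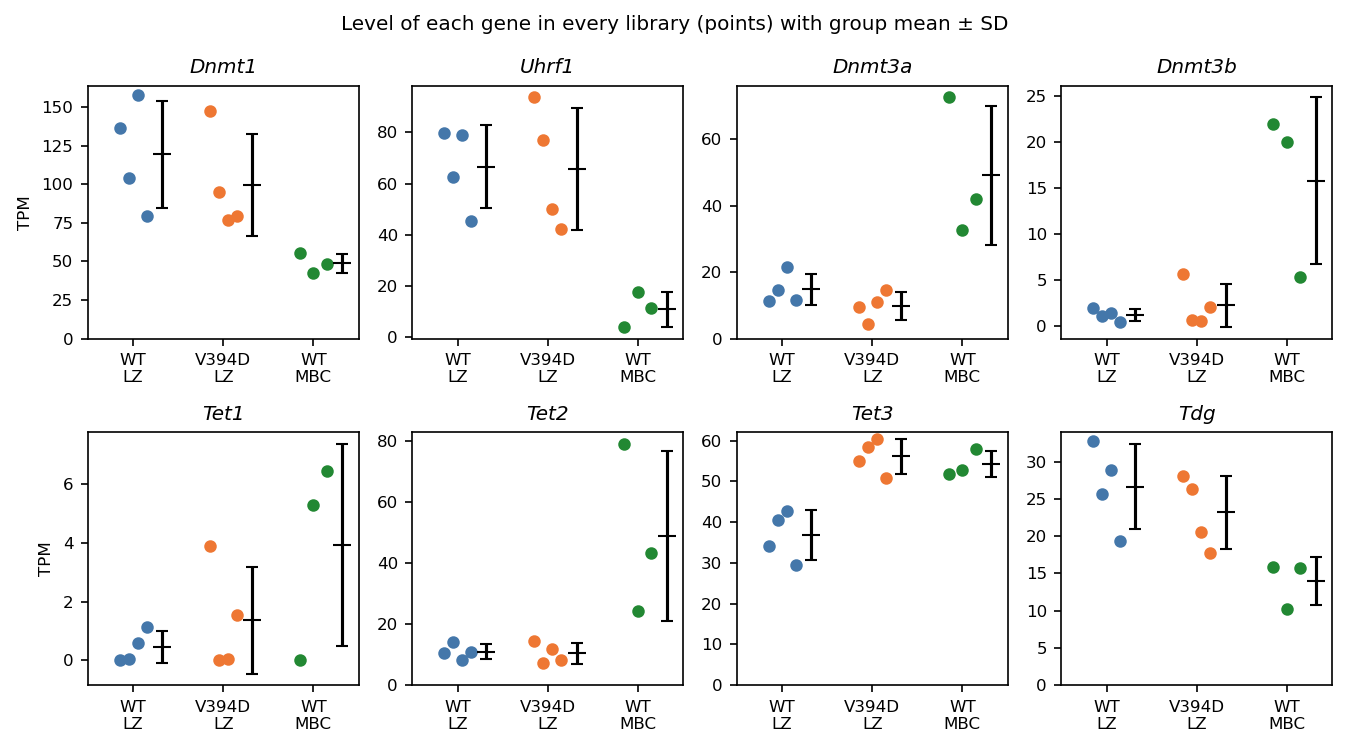
TPM of the 8 genes in each of 11 libraries (points; blue Myc WT LZ, orange Myc V394D LZ, green Myc WT MBC), with the group mean and SD in black and a separate linear axis for each gene. Dnmt1, Uhrf1 and Tdg in MBCs lay below every LZ library, and Dnmt3a and Tet2 in MBCs lay above every LZ library.

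The comparison of MBCs with LZ B cells of Myc WT mice asked how the enzymes differ between the light zone and memory. The LZ libraries hold LZ B cells as sorted, not cells separated by whether they had been selected. The maintenance pair was lower in MBCs, the de novo pair and Tet2 were higher, and 5 of the 8 passed the adjusted threshold of 0.05 in limma on log2(TPM + 1) over 13245 genes. Of these, 2 fell, beside 5.04% of all genes tested, and 3 rose, beside 4.17%. At an unadjusted p under 0.05 the counts were 3 lower (15.8% of all genes) and 3 higher (11.3%). The median log2 difference was 0.97 over the 8 genes and -0.14 over all genes, 1219 of which passed, 552 higher and 667 lower. That split became 837 higher and 555 lower when immunoglobulin and mitochondrial genes were removed.

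Dnmt1 (ENSMUSG00000004099, GRCm38 chromosome 9, 20907209 to 20959888, minus strand) was at 136.37, 103.85, 158.02 and 79.71 TPM in the LZ libraries of mice 1 to 4 and at 55.36, 42.42 and 48.22 TPM in the MBCs of mice 1, 3 and 4. All MBC values lay below all LZ values, and in such bulk samples fewer cells of a type and less RNA per cell cannot be told apart. The mean was 2.46-fold lower in MBCs, and the log2 difference was -1.24 (SE 0.29, adjusted p = 0.0338 from limma, exact permutation p = 0.0286, the smallest that 35 groupings allow).

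Uhrf1 (ENSMUSG00000001228, chromosome 17, 56303321 to 56323486, plus strand) was at 79.74, 62.51, 79.04 and 45.23 TPM in LZ and at 3.97, 17.69 and 11.27 TPM in MBCs. It had the largest drop among the 8 genes, 6.07-fold in the means. The log2 difference was -2.66 (SE 0.48, adjusted p = 0.0128 from limma, exact permutation p = 0.0286), at percentile 2.89 of all genes tested.

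Dnmt3a (ENSMUSG00000020661, chromosome 12, 3806007 to 3914443, plus strand) was at 11.17, 14.77, 21.45 and 11.7 TPM in LZ and at 72.69, 32.75 and 42.12 TPM in MBCs. The groups did not overlap, and the mean was 3.33-fold higher in MBCs. The log2 difference was 1.64 (SE 0.40, adjusted p = 0.0361 from limma, exact permutation p = 0.0286).

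Dnmt3b (ENSMUSG00000027478, chromosome 2, 153649450 to 153687730, plus strand) was at 1.93, 1.04, 1.37 and 0.37 TPM in LZ and at 21.88, 19.98 and 5.31 TPM in MBCs. It was below 2 TPM in every LZ library of Myc WT mice and 13.4-fold higher in the mean of MBCs, with mouse 4 the lowest of the MBCs. The log2 difference was 2.79 (SE 0.61, adjusted p = 0.0265 from limma, exact permutation p = 0.0286).

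Tet2 (ENSMUSG00000040943, chromosome 3, 133463679 to 133545139, minus strand) was at 10.46, 14.16, 8.25 and 10.84 TPM in LZ and at 79.3, 24.23 and 43.51 TPM in MBCs. Every MBC value exceeded every LZ value, and the mean was 4.49-fold higher. The log2 difference was 1.93 (SE 0.44, adjusted p = 0.0310 from limma, exact permutation p = 0.0286).

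The other 3 genes did not pass the adjusted threshold. Tet3 (ENSMUSG00000034832, chromosome 6, 83362373 to 83459084, minus strand) was at 34.18, 40.61, 42.85 and 29.39 TPM in LZ and at 51.91, 52.91 and 58.03 TPM in MBCs, without overlap (log2 difference 0.56, SE 0.27, adjusted p = 0.213 from limma, exact permutation p = 0.0286). Tdg (ENSMUSG00000034674, chromosome 10, 82629828 to 82650799, plus strand) was at 32.81, 25.64, 28.86 and 19.35 TPM in LZ and at 15.92, 10.22 and 15.79 TPM in MBCs, also without overlap (log2 difference -0.89, SE 0.35, adjusted p = 0.144 from limma, exact permutation p = 0.0571). Tet1 (ENSMUSG00000047146, chromosome 10, 62804570 to 62908996, minus strand) was at 0.02, 0.05, 0.59 and 1.15 TPM in LZ and listed at 0, 5.3 and 6.46 TPM in MBCs, where mouse 1 lay below the LZ values (log2 difference 1.38, SE 0.76, adjusted p = 0.282 from limma). In all, 4 of the 8 genes were higher without overlap, beside 11.8% of all genes tested, and 3 were lower without overlap, beside 14.4%. The processed pseudogenes Tdg-ps and Dnmt3a-ps1 stood at no more than 0.07 and at 0 TPM.

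Within each mouse, Dnmt1, Uhrf1 and Tdg were lower in MBCs than in LZ in 3 of 3 mice, and Dnmt3a, Dnmt3b, Tet2 and Tet3 were higher in 3 of 3. The within-mouse log2 difference of Uhrf1 was -4.02, -2.10 and -1.91 in mice 1, 3 and 4, and that of Dnmt3a was 2.60, 0.59 and 1.76. With the mouse as a block in the fit, 0 of the 8 genes passed, though 3 upward and 2 downward had an unadjusted p under 0.05, beside 6.86% and 9.93% of all 13151 genes in that fit. Of all genes, 0.989% rose and 0.897% fell at the adjusted threshold. The adjusted p-values from limma were then 0.153 for Dnmt1, 0.0549 for Uhrf1, 0.193 for Dnmt3a, 0.139 for Dnmt3b and 0.113 for Tet2.

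The calls also changed with single libraries. Without LZ library 1, 2 or 3, 0 of the 8 genes passed, while 1.56% to 1.80% of all genes rose and 1.03% to 1.31% fell. Without adjustment (p under 0.05), each of these 3 fits had 3 members upward and 2 downward, beside 8.39% to 9.01% and 11.3% to 12.9% of all genes. Without LZ library 4, 2 members fell (Dnmt1 and Uhrf1), beside 2.00% of all genes. Without MBC 1, 3 passed: Dnmt1, Uhrf1 and Tet1, the last with adjusted p = 0.0413 in limma, beside 4.35% of all genes higher and 4.43% lower. Tet1 reached the mean of 1 TPM needed for the test only through its MBC values (5.3 and 6.46 TPM, beside a mean of 0.453 TPM in LZ). Its call is therefore not independent of the filter. Without MBC 3, with the high erythroid markers, and without MBC 4, with the high Lyz2, the same 5 genes passed, beside 6.78% higher and 5.90% lower in the first fit and 7.06% higher and 14.0% lower in the second. Among the mice that share 1 ID prefix, 2 MBC against 3 LZ libraries, 3 genes passed (Dnmt1, Uhrf1 and Dnmt3b), beside 3.30% of all genes higher and 8.02% lower.

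**Figure D2:**
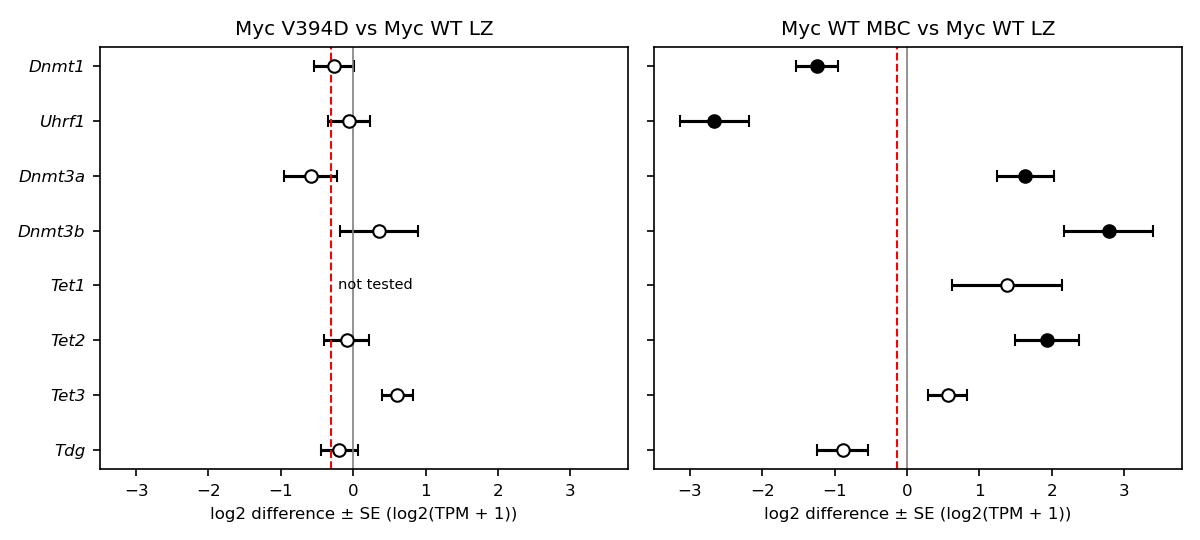
Log2 difference with its SE from limma for each gene, Myc V394D minus Myc WT LZ on the left and MBC minus LZ of Myc WT mice on the right. Filled points passed an adjusted p of 0.05, and the red dashed line is the median of all genes tested (-0.31 on the left, -0.14 on the right). The 5 filled points are all on the right.

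Shares within a library do not depend on how libraries are scaled, and are given as a description with no test. Dnmt1 made up 86.8 to 91.2% of the summed TPM of the 3 methyltransferases in Myc WT LZ and 36.9, 44.6 and 50.4% in the MBCs of mice 1, 3 and 4. Dnmt3a took 7.47 to 12.7% of that sum in LZ and 34.4 to 48.5% in MBCs. Dnmt3b took 0.403 to 1.29% in LZ and 5.55 to 21.0% in MBCs. The sum itself overlapped, at 91.8 to 181 TPM in LZ and 95.2 to 150 TPM in MBCs.

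For the TET genes the sum was 41.4 to 54.8 TPM in Myc WT LZ and 82.4 to 131 TPM in MBCs. Tet3 held 71.0 to 82.9% of it in LZ and 39.6 to 64.2% in MBCs, where Tet2 reached 29.4 to 60.4%. The ratio of summed methyltransferase to summed TET TPM was 2.18 to 3.50 in LZ and 0.886 to 1.15 in MBCs. The ratio of Dnmt1 to Uhrf1 was 1.66 to 2.00 in Myc WT LZ and 2.40 to 13.9 in MBCs, as Uhrf1 was the more reduced in every MBC library.

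**Figure D3:**
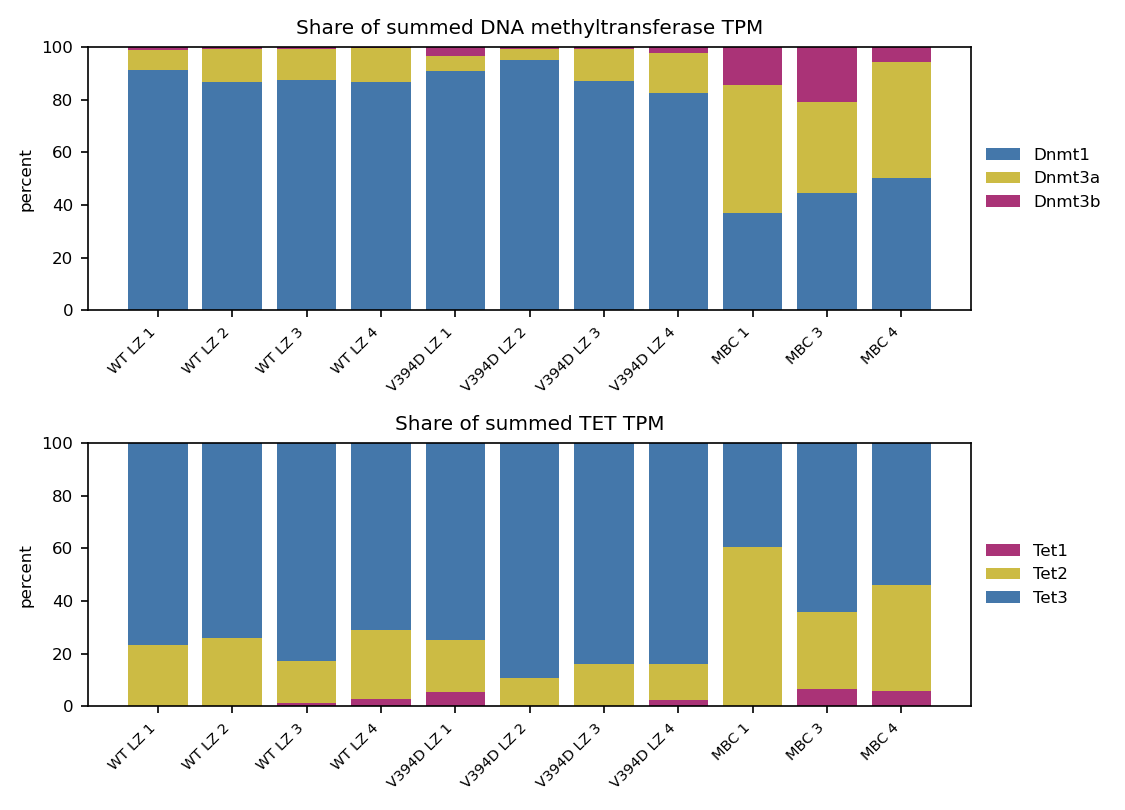
Percent of the summed TPM of Dnmt1, Dnmt3a and Dnmt3b (top) and of Tet1, Tet2 and Tet3 (bottom) in each library. Dnmt1 takes 82.6 to 94.9% of each LZ bar and 36.9 to 50.4% of each MBC bar, and Tet2 is the largest TET share only in MBC 1, at 60.4%.

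The comparison of Myc V394D with Myc WT asked whether loss of MYC binding to MIZ1 changes these genes in LZ B cells. Of the 7 members tested, 0 passed the adjusted threshold in limma, where 0.00777% of 12869 genes passed upward and 0.0389% downward. Without adjustment 1 of the 7 (Tet3) passed upward and 0 downward, beside 1.24% and 15.7% of all genes. Most genes were lower in Myc V394D, with a median log2 difference of -0.31 over all genes tested and -0.09 over the 7. Adjusted calls were 1 higher and 5 lower as tested and 4 higher and 5 lower after quantile normalization, and unadjusted calls were 709 higher and 809 lower after median ratio scaling against 160 and 2020 as tested.

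Tet3 was at 55.02, 58.36, 60.46 and 50.79 TPM in Myc V394D LZ, above the 29.39 to 42.85 TPM of all Myc WT LZ libraries. It was the gene of the 8 whose groups did not overlap (1 higher, beside 0.816% of all genes, and 0 lower, beside 9.16%). The log2 difference was 0.61 (SE 0.21, unadjusted p = 0.0134, adjusted p = 0.191 from limma, exact permutation p = 0.0286, the smallest that 70 groupings allow), or 0.92 above the all-gene median. The difference kept its sign under every alternative run, from 0.51 to 0.95, with adjusted p from 0.108 to 0.561. Its level in Myc V394D LZ overlapped that in MBCs. Of the 6 erythroid markers, 5 had a positive difference in the same comparison and 3 an unadjusted p under 0.05 upward (median log2 difference 1.19), while 0 passed the adjusted threshold, and their part in the Tet3 difference was not tested. The Tet3 difference was 0.59 without Myc V394D 2, the library with the highest Hbb-bs level (194.22 TPM), and Myc V394D 4 had Hbb-bs at 28.97 TPM and Tet3 at 50.79 TPM. The summed TPM of the 5 plasma cell markers was also separate between the genotypes, at 133.8 to 220.65 in Myc V394D LZ and 229.37 to 381.4 in Myc WT LZ. Of all genes tested, 9.16% were lower without overlap. The sum was not rescaled, and ribosomal RNA took 44.1 to 61.3% of TPM in Myc V394D LZ against 35.7 to 44.5% in Myc WT LZ. Of the 4 plasma cell markers tested, 4 had a negative difference (median log2 difference -0.36, beside -0.31 over all genes) and 0 passed the adjusted threshold. Jchain, which encodes the joining chain of secreted antibodies, was the largest part of the sum in every LZ library. Its log2 difference was -1.09, with an adjusted p of 0.122 in limma (unadjusted 0.0021). All libraries were sorted as CD138neg, and the part of these markers in the Tet3 difference was not tested.

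Dnmt1 was at 147.66, 94.86, 77.05 and 79.3 TPM and Uhrf1 at 93.6, 76.94, 49.99 and 42.31 TPM in Myc V394D LZ. The ranges of both genes overlapped those of Myc WT (log2 difference -0.26, adjusted p = 0.648, and -0.06, adjusted p = 0.943, from limma). Relative to the all-gene median they stood 0.04 and 0.25 higher, and the sign turned positive after median ratio scaling, to 0.08 and 0.28.

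Dnmt3a was at 9.46, 4.44, 10.97 and 14.66 TPM, a log2 difference of -0.59 (SE 0.37, adjusted p = 0.438 from limma). Under the alternatives run the difference ranged from -0.80, without Myc V394D 4, to -0.27, after median ratio scaling. It was -0.70 without Myc WT LZ 1, -0.29 without Myc V394D 2, -0.28 after quantile normalization and -0.32 without ribosomal RNA genes. Dnmt3b was at 5.59, 0.67, 0.54 and 2.06 TPM, Tet1 at 3.88, 0, 0.06 and 1.54 TPM, Tet2 at 14.55, 7.11, 11.67 and 8.31 TPM, and Tdg at 28.13, 26.33, 20.61 and 17.7 TPM. All 4 overlapped Myc WT, and Tet1 was below the mean of 1 TPM needed for the test. The summed TET level was 60.6 to 73.5 TPM against 41.4 to 54.8 TPM in Myc WT, while the ratio of methyltransferase to TET TPM overlapped, at 1.23 to 2.22 against 2.18 to 3.50. Dnmt1 kept 82.6 to 94.9% of the methyltransferase sum in Myc V394D LZ, and Dnmt1, Uhrf1 and Tdg there lay above, and Dnmt3a and Tet2 below, every MBC library.

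Among 49 other genes of the pathway, 44 were tested between MBCs and LZ, and 0 rose (4.17% of all genes tested) while 8 fell (5.04%), with a median log2 difference of -0.70. Pathway genes passing in either direction numbered 4 with the mouse as a block, beside 0.989% of all genes higher and 0.897% lower. They numbered 4 without LZ library 1 or 3 and 5 without LZ library 2, beside 1.56% to 1.80% higher and 1.03% to 1.31% lower. Without MBC 3 the number was 12 (6.78% of all genes higher, 5.90% lower), and without MBC 4 it was 15 (7.06% higher, 14.0% lower). Of the 8 partners of maintenance, 4 of the 7 tested fell: Pcna, the replication clamp (336 to 99.7 TPM, log2 difference -1.73), Lig1, which joins Okazaki fragments (180 to 32.9 TPM, -2.61), Pclaf, a clamp-associated factor (203 to 22.0 TPM, -4.00), and Cdca7, a partner of the remodeler Hells (37.9 to 6.54 TPM, -3.49). Pclaf was at 34.65, 0.72 and 30.51 TPM in the MBCs of mice 1, 3 and 4, and Cdca7 at 0.95, 0.07 and 18.61 TPM, all below the LZ libraries, with MBC 3 the lowest for Pclaf and MBC 4 the highest for Cdca7. Of 11 base excision genes tested 3 fell, among them Neil1, a DNA glycosylase (-2.38), and Mbd4, a glycosylase for T opposite G (-1.75). Of the 4 de novo partners tested, Nsd2, a histone H3 lysine 36 methyltransferase, fell by 1.34 on the log2 scale.

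No gene of the TET regulators, methyl-CpG readers or methyl donor enzymes passed the adjusted threshold in MBCs, though 3 upward and 5 downward of the 22 tested had an unadjusted p under 0.05, a threshold passed by 11.3% of all genes upward and 15.8% downward. The gene with the smallest p in each of these lists was, in turn, Dcaf1 (adjusted p = 0.0667 from limma), Zbtb38 (92.4 to 50.0 TPM, adjusted p = 0.0747) and Ahcyl1 (38.5 to 67.1 TPM, adjusted p = 0.0874). Dcaf1 was at 12.05 to 39.13 TPM in LZ and at 722.18, 45.02 and 172.27 TPM in MBCs, with MBC 1 far above the others. Of the 13 cycling genes 10 fell, with a median of -2.37, among them Mki67 (417 to 92.2 TPM), Top2a (330 to 82.7 TPM) and Tyms (103 to 5.39 TPM, with MBCs at 0.11, 0 and 16.06 TPM). The lower cycling genes moved with the lower Dnmt1 and Uhrf1, and their part in that result was not tested.

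**Figure D4:**
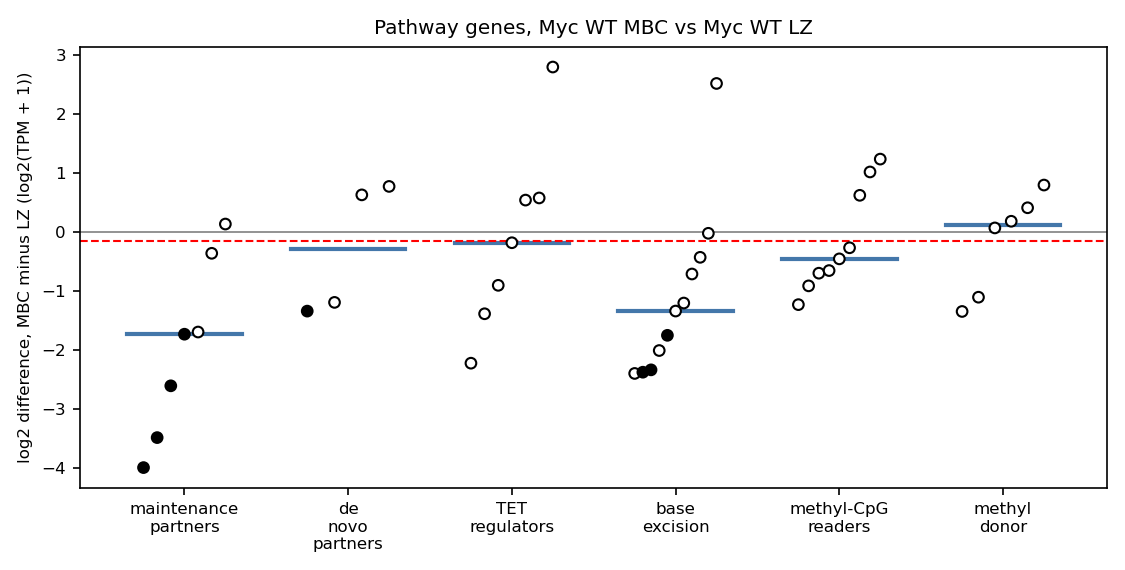
Log2 difference, MBC minus LZ of Myc WT mice, of each tested gene in 6 pathway lists. Filled points passed an adjusted p of 0.05, the blue line is the median of a list and the red dashed line that of all genes (-0.14). The maintenance partners (-1.73) and base excision genes (-1.34) have the lowest medians, and the 8 filled points all lie below 0.

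Between genotypes, 0 of 43 pathway genes tested passed the adjusted threshold, while 6 had an unadjusted p under 0.05 downward, where 15.7% of all genes did, and 0 upward, where 1.24% did. Smallest by p in 5 of the 6 lists were Cdca7 (37.9 to 23.6 TPM, adjusted p = 0.178 from limma), Nsd2 (174 to 129 TPM, adjusted p = 0.358), Cxxc5 (17.6 to 10.4 TPM, adjusted p = 0.253), Mbd2 (212 to 156 TPM, adjusted p = 0.403) and Mat2b (24.5 to 11.9 TPM, adjusted p = 0.156). Of 13 cycling genes 0 passed (3 lower at an unadjusted p under 0.05), with a median of -0.58 against -0.31 over all genes.

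Across the 8 LZ libraries, the levels of 3 members followed the mean log2 level of the 13 cycling genes. The share of all genes that follow it as closely was not computed, so whether 3 of 8 is unusual cannot be told. Pearson's r was 0.92 for Dnmt1 (Spearman's rho 0.95), 0.86 for Uhrf1 (rho 0.86) and 0.93 for Tdg (rho 0.93), with Benjamini-Hochberg adjusted exact permutation p = 0.0124, 0.0262 and 0.0124 for r and 0.00893, 0.0286 and 0.00893 for rho over the 8 members. Without the 2 libraries farthest from the median on the cycling axis r was 0.90, 0.72 and 0.86. The libraries share their scaling, and after median ratio scaling r fell to 0.78, 0.73 and 0.67 with adjusted exact permutation p = 0.193, 0.193 and 0.207. For the other 5 members r lay between -0.25 and 0.31, with adjusted exact permutation p from 0.856 to 0.872. After median ratio scaling their r was -0.44 (Dnmt3a), 0.23 (Dnmt3b), -0.20 (Tet1), -0.62 (Tet2) and -0.27 (Tet3), with adjusted exact permutation p from 0.207 to 0.620. Within genotype, taking deviations from each genotype's mean, r was 0.93 for Dnmt1, 0.98 for Uhrf1 and 0.94 for Tdg, with adjusted exact permutation p = 0.0139, 0.0139 and 0.0324 over 576 orderings. After median ratio scaling these were 0.85, 0.96 and 0.83, each with adjusted exact permutation p = 0.0741. For the other 5 members the within-genotype r was -0.19 (Dnmt3a), 0.55 (Dnmt3b), 0.05 (Tet1), -0.01 (Tet2) and 0.57 (Tet3), with adjusted exact permutation p from 0.322 to 0.979. The rescaled values were -0.54 (Dnmt3a), 0.37 (Dnmt3b), -0.13 (Tet1), -0.59 (Tet2) and -0.14 (Tet3), so that Tet1 and Tet3 changed sign, with adjusted exact permutation p from 0.326 to 0.859.

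**Figure D5:**
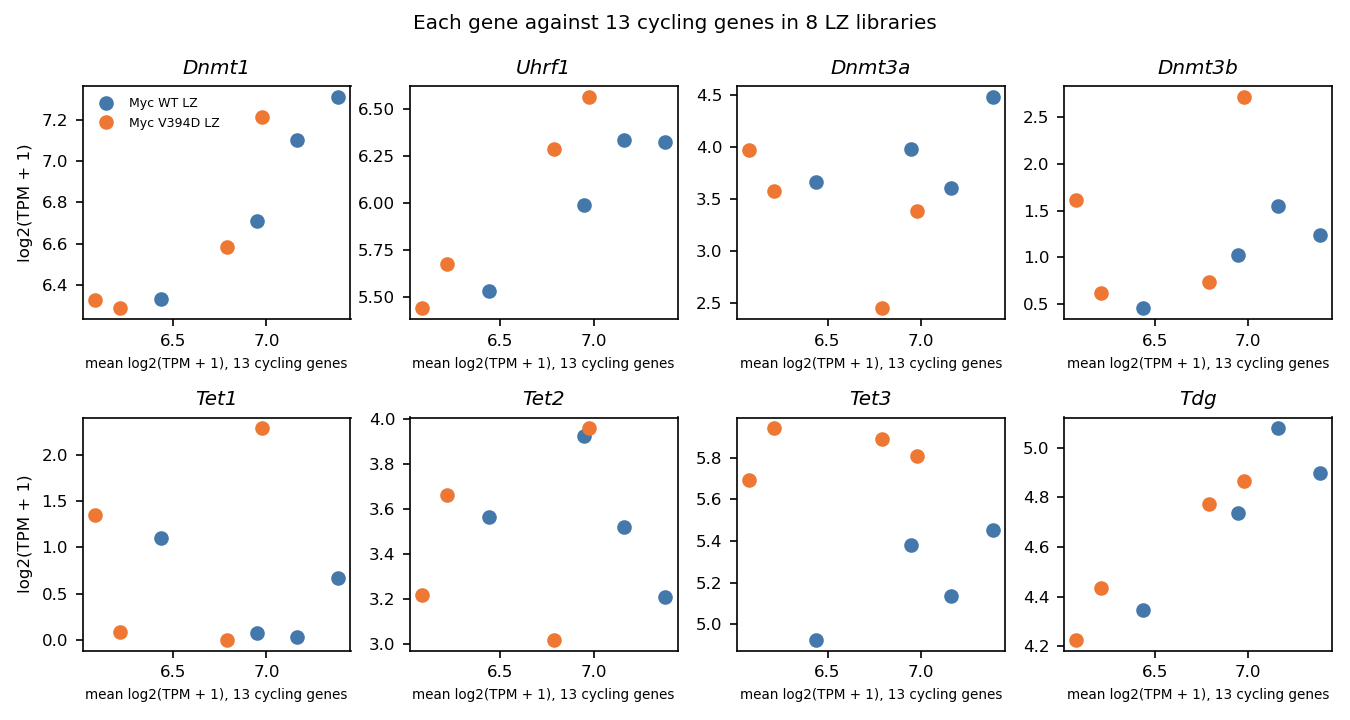
Log2(TPM + 1) of each gene against the mean log2(TPM + 1) of 13 cycling genes in the 8 LZ libraries (blue Myc WT, orange Myc V394D). Dnmt1, Uhrf1 and Tdg rise along the axis (r = 0.92, 0.86 and 0.93), and the Tet3 points of Myc V394D lie above those of Myc WT.

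The genes most like each member over the 11 libraries, by Pearson's r of log2(TPM + 1) among 9200 genes, are given as a description, since the libraries share scaling and fall into 3 groups. For Dnmt1 they were Tpx2 (r = 0.99), Lpp (0.96) and Top2a (0.96), with r of 0.98, 0.92 and 0.93 in the 8 LZ libraries. For Uhrf1 they were Lig1, Gen1 and Gcsam (0.99 each, and 0.92, 0.92 and 0.91 in LZ), and for Tdg Maged1, Pmm1 and Rnps1 (0.97 each, and 0.91, 0.96 and 0.92 in LZ).

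For Dnmt3a the most alike were Slc4a1ap (0.99), Ide (0.96) and Fbxl20 (0.96), and for Dnmt3b Setd5 (0.98), Atrx (0.96) and Bcl9l (0.95). For Tet2 they were Zfp831 (0.97), Ckap4 (0.97) and Lcor (0.96), with r of 0.38, 0.55 and 0.94 in LZ, so that the first 2 rest largely on MBCs. Tet3 reached 0.83 with Setbp1, 0.82 with Nipal3 and 0.81 with Slc41a1, and Tet1 0.89 with Sun1, 0.87 with Kctd12 and 0.86 with Grina.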

How the data were processed

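RNA-seq of 11 libraries was used: LZ B cells of 4 Myc WT and 4 Myc V394D mice and MBCs of 3 Myc WT mice. The authors aligned reads with STAR 2.5.2a and quantified Ensembl genes of GRCm38 with RSEM 1.3.0 (strand-specific), and deposited TPM. The annotation release is not given in the sources used here. TPM keep no depth, and a library in which ribosomal RNA takes more leaves less for other genes. The authors' differential expression used DESeq2 (the submitters' processing notes give 1.18.1); no such results were used here. Symbols, positions and exons came from GENCODE M21 (GRCm38), which holds 48349 of 48795 genes, and promoters from RefSeq (GRCm38.p6).

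Differences were fitted in R 4.3.3 with limma 3.58.1 (lmFit, eBayes with a trend) on log2(TPM + 1), a scale that understates changes of low genes. A gene was tested where its mean reached 1 TPM across the fitted libraries, and each fit held only the 2 groups compared, two-sided, with Benjamini-Hochberg adjustment at 0.05. Both comparisons share the Myc WT LZ libraries. Single members were tested by two-sided exact permutation over 70 or 35 groupings, and correlations over 40320 orderings, or 576 within genotype (Python 3.11.15, numpy 2.4.6, pandas 2.3.3, scipy 1.17.1). The fits were tested on simulated data.

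MBC and LZ libraries of 1 number came from 1 mouse, as the labels show; across genes, the correlation of their deviations from the group mean was 0.00507 in mouse 1, 0.0115 in mouse 3 and -0.047 in mouse 4. Members, pathway lists and marker lists were chosen with earlier results of these data known. Named were all members, pathway genes past the adjusted threshold (up to 6 a list, or the 1 with the smallest p), up to 3 cycling genes and the 3 genes most like each member (mean of at least 5 TPM); 1 pathway gene that this rule gives is not reported here. The motifs, the correlations with cycling genes and the fit among mice of 1 ID prefix were chosen after seeing the data. Alternatives were a pseudocount of 0.1, other filters, scalings and fits, removal of ribosomal RNA genes or of immunoglobulin and mitochondrial genes, the mouse as a block and each library left out.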

Additional observations from a re-analysis of the deposited data

How the results depend on the processing

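Between MBCs and LZ B cells, every member kept its direction under all alternatives run. In limma, 5 members passed with a pseudocount of 0.1, with a mean of at least 5 TPM (7 members tested), and after median ratio scaling or quantile normalization. The same number passed after removal of ribosomal RNA or of immunoglobulin and mitochondrial genes, and with all 3 groups in 1 fit. In that order, 3.62%, 6.25%, 4.38%, 5.44%, 3.47%, 6.09% and 5.37% of all genes were higher. The shares lower were 3.84%, 6.53%, 6.65%, 7.44%, 5.57%, 4.04% and 7.71%. The count was 1 with no filter on low values, 3 without a trend, 3 among mice of 1 ID prefix, 0 with the replicate block (mouse) and between 0 and 5 with 1 library left out. The shares of all genes higher and lower were 1.37% and 1.16% with no filter, 3.01% and 4.47% without a trend, 3.30% and 8.02% among mice of 1 ID prefix, and 0.989% and 0.897% with the replicate block. Pathway genes passing (8) became 5 without a trend, 13 with all 3 groups in 1 fit, 4 with the replicate block and 4 to 15 with 1 library left out. All genes passing (1219) became 608 with no filter, 248 with the replicate block, and 342 (without LZ 2) to 2754 (without MBC 4) with 1 library left out. More genes are tested with no filter, and fewer libraries or degrees of freedom remain with a library left out or a block. The calls over all genes nevertheless rose to 1685 without MBC 3 and to 2754 without MBC 4. Why the counts changed was not tested.

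Between genotypes, 0 members passed under any alternative, while 6 genes in all became 0 with a pseudocount of 0.1, no filter, median ratio scaling or all 3 groups in 1 fit, 15 with a mean of at least 5 TPM, 1 without ribosomal RNA genes, 1 without immunoglobulin and mitochondrial genes, and 0 to 254 (without Myc V394D 1) with 1 library left out. Pathway genes passing were 0 to 1 with 1 library left out. Small differences changed sign. After median ratio scaling the log2 differences of Dnmt1, Uhrf1, Tet2 and Tdg were 0.080, 0.28, 0.22 and 0.14, after quantile normalization 0.029, 0.20, 0.18 and 0.055, and without ribosomal RNA genes 0.048, 0.25, 0.20 and 0.11. Without immunoglobulin and mitochondrial genes Uhrf1 was 0.075 and Tet2 0.031. Leaving out 1 library turned Uhrf1 (from -0.25 to 0.13), Tet2 (from -0.25 to 0.060) and Dnmt3b (from -0.078, without Myc V394D 1, to 0.62). No paired analysis was possible because Myc V394D and Myc WT mice share no animal. The values keep no depth, so the counting error of low levels such as those of Tet1 and Dnmt3b cannot be estimated.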
